A study of Mus musculus with 115 samples.

Results

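The genes described here are 10 marker genes of astrocytes and of reactive gliosis, namely Gfap, Vim, Serpina3n, Osmr, Cd44, Aqp4, S100b, Slc1a2, Slc1a3 and Aldh1l1. They were taken by gene symbol from a table of read counts that holds 37315 genes, and all 10 were found. Astrocytes are the glial cells that clear glutamate and potassium from synapses, wrap blood vessels with their endfeet and supply neurons with metabolites. After injury, infection or protein deposition they become reactive, a state in which they thicken their cytoskeleton of intermediate filaments and secrete protease inhibitors and immune mediators. A milder form of this state is known from the ageing brain. The 10 genes cover both sides: Slc1a2, Slc1a3, Aldh1l1, Aqp4 and S100b serve the work of resting astrocytes, and Gfap, Vim, Serpina3n, Osmr and Cd44 are classical genes of the reactive state.

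RNA was sequenced from 4 tissues of C57BL/6J males from a breeding facility. The ages sampled were 2, 9, 15, 24 and 30 months. A hemisphere served as brain sample, and the contrasting tissues were liver, hairless skin of the abdomen and globin-depleted whole blood. There were 39 libraries of brain (8 at each age, 7 at 24 months), 24 of liver, 25 of skin and 24 of blood. Brain libraries held 28141342 to 50375815 counts. The range was 20190745 to 46592449 for liver, 27010148 to 40648322 for skin and 28841527 to 35296480 for blood. Liver was prepared with an earlier kit and run on an earlier sequencer than the other tissues, so tissue, kit and sequencer cannot be told apart in a comparison with liver. By the numbers in the sample titles, blood and skin came from shared animals.

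Among the brain libraries, 5 pairs of 1 library of 9 months and 1 of 15 months were nearly identical. Their mean chi-square per gene was 1.20 to 2.64 over 18192 genes, while the closest pair of libraries of the same age had 4.14. They were kept as labelled, which bears on the comparison of 15 with 9 months in particular. The brain tests share an estimate of the spread over all ages, so the other brain comparisons are touched as well. Another 3 brain libraries stood apart, namely 9-month replicates 1 and 3 and 30-month replicate 7. Mitochondrial transcripts made up 17.0%, 17.1% and 16.5% of their counts, against at most 12.96% in the other brain libraries. Their summed level of 8 neuron markers was 3845 to 4393 CPM (counts-per-million, scaled for library composition), below the lowest of the other 36 libraries at 4733 CPM. Of 30 core astrocyte genes none was without counts in a brain library, and their summed level was 7688 to 8800 CPM in these 3 libraries and 10226 to 13366 CPM in the others.

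In each tissue, genes were tested with edgeR's quasi-likelihood test on the counts, and p-values were adjusted by the Benjamini-Hochberg method over all genes tested in that tissue. Rose and fell are used for genes with an adjusted p under 0.05. Old stands for the average of 24 and 30 months and young for 2 months, unless ages are given. Changes are given as log2 fold change ± standard error. In bulk tissue, fewer cells of a type and less RNA per cell cannot be told apart.

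Of the 10 genes, 4 rose in old brain and 0 fell. These were Gfap, Vim, Serpina3n and Osmr, and 4.61% of the 18851 genes tested rose while 3.37% fell. At an unadjusted p under 0.05, 4 were higher and 1 (Aqp4) was lower, and DESeq2 and limma voom also called 4 risen and 0 fallen. The median log2 fold change was 0.17 over the 10 genes and -0.0016 over all genes tested. The same 4 genes were called in a test for any difference among the 5 ages, which called 6.47% of all genes. All 10 passed the filter on low counts in brain. Without the 3 libraries that stood apart, 4 genes rose and 0 fell.

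The promoters of the 4 risen genes are shown because these are the members whose level rose with age. Each window runs from 250 bases before to 50 bases after the transcription start that RefSeq gives for the mouse genome build GRCm38.p6, and is written 5′ to 3′ on the strand of the gene. Capitals mark matches to either of 2 motifs, the STAT motif TTCNNNGAA and the AP-1 motif TGANTCA. Both read the same on either strand and they do not overlap. The positions are chr11:102897151-102897450 on the minus strand for Gfap, chr2:13574061-13574360 on the plus strand for Vim, chr12:104406458-104406757 on the plus strand for Serpina3n and chr15:6874264-6874563 on the minus strand for Osmr.
Gfap: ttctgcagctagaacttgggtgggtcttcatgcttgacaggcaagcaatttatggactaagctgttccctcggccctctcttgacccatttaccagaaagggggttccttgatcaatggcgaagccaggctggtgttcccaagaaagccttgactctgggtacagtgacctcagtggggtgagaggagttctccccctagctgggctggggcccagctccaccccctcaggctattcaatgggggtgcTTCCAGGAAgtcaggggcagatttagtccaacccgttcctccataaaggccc
Vim: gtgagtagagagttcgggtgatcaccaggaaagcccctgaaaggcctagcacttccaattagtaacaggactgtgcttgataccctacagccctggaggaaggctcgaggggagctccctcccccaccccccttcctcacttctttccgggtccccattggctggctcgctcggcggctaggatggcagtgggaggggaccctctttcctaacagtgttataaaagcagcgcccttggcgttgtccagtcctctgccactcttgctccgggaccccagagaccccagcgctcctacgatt
Serpina3n: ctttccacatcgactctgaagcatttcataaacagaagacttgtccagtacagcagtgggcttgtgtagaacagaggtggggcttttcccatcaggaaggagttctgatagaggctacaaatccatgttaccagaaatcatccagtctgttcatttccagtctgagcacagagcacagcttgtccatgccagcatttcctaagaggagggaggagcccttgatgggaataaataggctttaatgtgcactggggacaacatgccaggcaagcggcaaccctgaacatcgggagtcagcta
Osmr: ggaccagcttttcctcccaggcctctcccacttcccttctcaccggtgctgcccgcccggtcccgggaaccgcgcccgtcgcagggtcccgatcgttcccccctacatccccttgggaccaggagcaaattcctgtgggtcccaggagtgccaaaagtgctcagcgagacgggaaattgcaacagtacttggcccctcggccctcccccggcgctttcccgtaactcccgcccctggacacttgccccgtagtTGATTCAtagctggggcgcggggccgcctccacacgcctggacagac

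STAT factors carry the signal of interleukin-6 type cytokines, and AP-1 is the dimer of Fos and Jun proteins. The STAT letters stood in the Gfap window as TTCCAGGAA from position -2 relative to the start, and the AP-1 letters in the Osmr window as TGATTCA from base 4 after the start. The windows of Vim and Serpina3n held neither. Promoter entries were given for 9 of the 10 genes, and among the other 5 of these the STAT letters stood only in Slc1a3, as TTCCAAGAA from position -96. Of all 32851 promoters, 8.3% held the STAT letters and 7.81% the AP-1 letters. These matches describe the letters of the window and were not tested for binding.

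**Figure D1:**
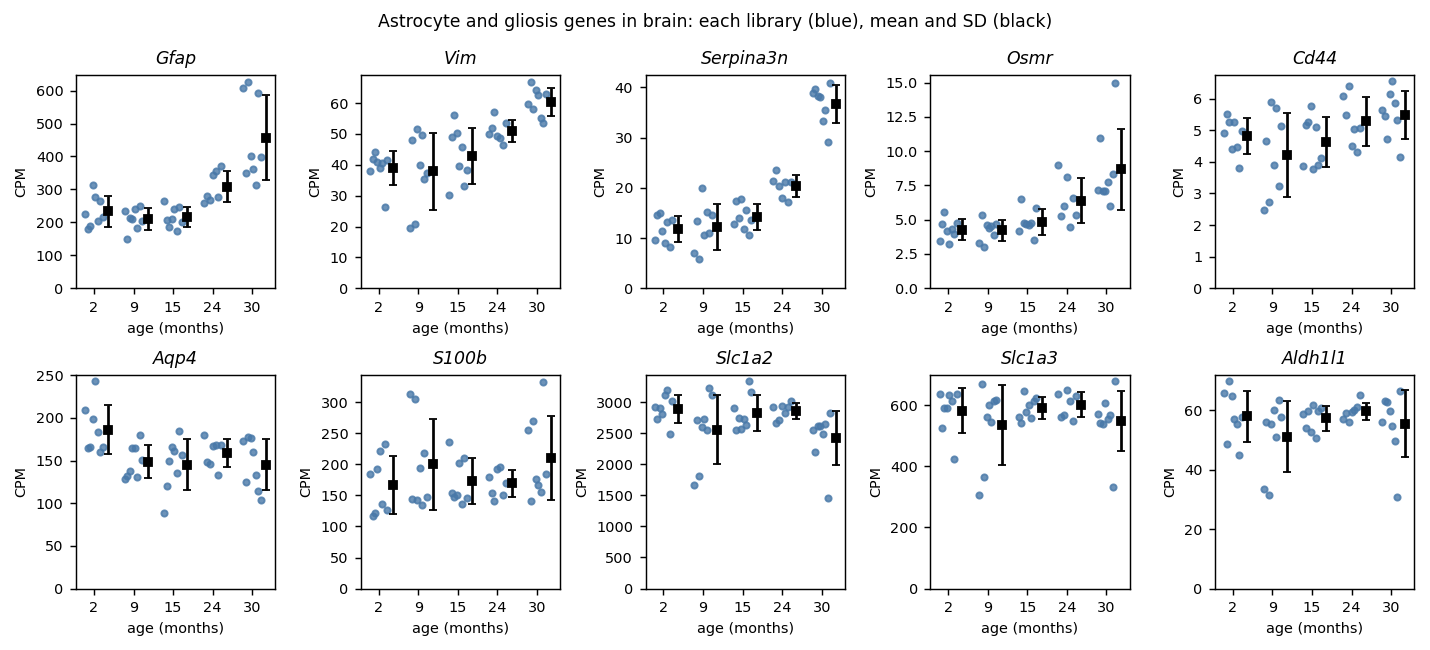
CPM of the 10 genes in each of the 39 brain libraries (points) by age in months, with the mean and SD of each age beside them (squares and bars). Gfap, Vim, Serpina3n and Osmr are higher at 30 months than at 2 months in every library, while the ranges of the other 6 genes overlap.

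The intermediate filament genes came first in the comparison. Gfap (ENSMUSG00000020932, chromosome 11, 102887336 to 102900912, minus strand, GRCm38) encodes glial fibrillary acidic protein, the filament that defines astrocytes and accumulates in reactive ones. Its level was 180 to 313 CPM at 2 months (median 220.6), 148 to 248 at 9 months (median 212), 173 to 263 at 15 months (median 210), 260 to 371 at 24 months (median 279) and 314 to 625 at 30 months (median 400). The first 3 ages thus overlapped throughout, and every 30-month library lay above every 2-month library. Within the 30-month group, replicates 1, 3 and 7 had 609, 625 and 594 CPM and the other 5 had 314 to 403 CPM. These 3 libraries also had the highest summed oligodendrocyte markers of the age, at 8729 to 10079 CPM against 5687 to 7574 CPM. Their summed neuron markers were the lowest of the age, at 3845 to 5357 CPM against 6113 to 7762 CPM. The part of cell composition in their Gfap level was not tested. The mean was 233.9 ± 47.01 CPM (SD, n = 8) at 2 months and 457 ± 129 CPM (SD, n = 8) at 30 months. Gfap rose by 0.68 ± 0.12 in old brain (adjusted p = 1.97e-04) and by 0.96 ± 0.14 between 2 and 30 months (adjusted p = 4.31e-06). Between 2 and 24 months the difference was 0.40 ± 0.14 (adjusted p = 0.150).

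Vim (ENSMUSG00000026728, chromosome 2, 13573927 to 13582826, plus strand) encodes vimentin, which co-assembles with GFAP in reactive astrocytes and is also made by endothelial cells, fibroblasts and leukocytes. It had 26.2 to 44.3 CPM at 2 months (median 40.7), 19.6 to 51.7 at 9 months (median 38.6), 30.4 to 56.1 at 15 months (median 42.7), 46.3 to 56.97 at 24 months (median 50.004) and 53.5 to 66.9 at 30 months (median 61.1). Both old groups lay entirely above the 2-month group, with the 9- and 15-month groups spanning the gap. Vim rose by 0.51 ± 0.13 in old brain (adjusted p = 0.00799) and by 0.63 ± 0.14 at 30 months (adjusted p = 0.00249). At 24 months the difference from 2 months was 0.39 ± 0.15 (adjusted p = 0.197). The lowest 2-month value was replicate 7, which also had the highest mitochondrial share of its age.

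Among 14 genes of intermediate filaments and the linker plectin, 2 rose and 0 fell, and the 2 were Gfap and Vim. The median over the 12 others was 0.10. DESeq2 and limma voom gave the same counts, and at an unadjusted p under 0.05 none of the 12 was called. Other filament partners of GFAP and vimentin in astrocytes were among the 12. Nes, which encodes nestin, differed by -0.17 ± 0.18 (adjusted p = 0.752), and Synm, which encodes synemin, by 0.28 ± 0.16 (adjusted p = 0.384). Synm rose once the 3 libraries that stood apart were left out (0.33 ± 0.10, adjusted p = 0.0230).

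Serpina3n (ENSMUSG00000021091, chromosome 12, 104406729 to 104414329, plus strand) encodes a secreted inhibitor of serine proteases and is a widely used marker of reactive astrocytes in mice. Of the 10 genes it had the largest rise in old brain and the least overlap between ages. Its level was 8.25 to 15.0 CPM at 2 months (median 12.3), 5.83 to 20.03 at 9 months (median 12.2), 10.6 to 17.7 at 15 months (median 13.8), 17.1 to 23.5 at 24 months (median 21.1) and 29.1 to 40.8 at 30 months (median 38.2). The 24-month libraries all lay above the 2-month libraries, and the 30-month libraries all lay above the 24-month libraries. The mean was 11.8 ± 2.60 CPM (SD, n = 8) at 2 months and 36.7 ± 3.87 CPM (SD, n = 8) at 30 months. Serpina3n rose by 1.21 ± 0.15 in old brain (adjusted p = 2.93e-07), by 0.79 ± 0.17 at 24 months (adjusted p = 0.00327) and by 1.64 ± 0.16 at 30 months (adjusted p = 4.14e-09).

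Serpina3n belongs to a cluster of similar genes, and reads shared between them could have been split by the counting, so their separate levels are uncertain. Of 11 genes of this serpin A3 family, 3 passed the filter in brain and all 3 rose, which is no count over the family since low genes could pass only through an age at which they were high. Serpina3g rose by 1.07 ± 0.24 (adjusted p = 0.00236), from 0.488 to 1.25 CPM at 2 months to at least 1.16 CPM at 30 months. Serpina3f rose by 3.22 ± 0.68 (adjusted p = 0.00138) from a level between 0 and 0.136 CPM at 2 months, so its fitted fold change rests on very few counts. Serpina3n was the most abundant of the 3 by far at every age.

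Osmr (ENSMUSG00000022146, chromosome 15, 6813577 to 6874969, minus strand) encodes the receptor subunit that binds oncostatin M and signals together with gp130. It had 3.21 to 5.57 CPM at 2 months (median 4.26), 2.98 to 5.33 at 9 months (median 4.46), 3.55 to 6.55 at 15 months (median 4.71), 4.46 to 9.02 at 24 months (median 6.01) and 6.01 to 15.0 at 30 months (median 7.44). The 30-month libraries all lay above the 2-month ones, while the 24-month libraries overlapped both. Replicates 8 and 2 of the oldest group were the highest, at 14.99 and 10.98 CPM, and the other 6 had at most 8.33 CPM. Osmr rose by 0.80 ± 0.14 in old brain (adjusted p = 1.88e-04) and by 1.02 ± 0.16 at 30 months (adjusted p = 2.05e-05). Its rise at 24 months, 0.59 ± 0.17 with an adjusted p of 0.0460, was lost in 24 of 39 fits that left out 1 library each.

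The cytokine family read by Osmr was compared as a list of 24 genes of gp130 cytokines, their receptors and the JAK-STAT3 pathway. Of the 21 genes tested, 4 rose and 0 fell, with a median of 0.13. Besides Osmr they included Bcl3, a nuclear regulator of NF-kappaB (1.26 ± 0.21, adjusted p = 5.45e-05), and the feedback inhibitor Socs3 (0.46 ± 0.13, adjusted p = 0.0253). The receptor partner Il6st, which encodes gp130, differed by 0.07 ± 0.13 (adjusted p = 0.878), and the related receptor Lifr by 0.18 ± 0.10 (adjusted p = 0.349). The ligand Osm was under the filter, with 0.0483 to 0.154 CPM at 2 months and 0.0554 to 0.610 CPM at 30 months. At an unadjusted p under 0.05, 7 genes of the list were higher and 1 was lower, and DESeq2 called 6 risen and limma voom 4, with 0 fallen by either. Stat3, the main transducer of the pathway, differed by 0.35 ± 0.12 (adjusted p = 0.0625) and rose without the 3 libraries that stood apart (0.38 ± 0.08, adjusted p = 0.00109), where 7 genes of the list were called.

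Cd44 (ENSMUSG00000005087, chromosome 2, 102811141 to 102901665, minus strand) encodes the receptor for hyaluronan and osteopontin on reactive astrocytes and on leukocytes. It was low in brain, with 3.80 to 5.53 CPM at 2 months (median 4.94), 2.48 to 5.88 at 9 months (median 4.29), 3.79 to 5.78 at 15 months (median 4.62), 4.31 to 6.41 at 24 months (median 5.07) and 4.14 to 6.56 at 30 months (median 5.55). The groups overlapped at all ages, and the difference between old and young was 0.16 ± 0.12 (adjusted p = 0.576). Of the 22 genes of hyaluronan and CD44 biology, Hapln2, a link protein of nodes of Ranvier, rose by 0.70 ± 0.12 (adjusted p = 1.32e-04) and Hapln1, a link protein of perineuronal nets, fell by 0.39 ± 0.06 (adjusted p = 6.33e-06). The median of this list was 0.02. Moesin (Msn), which links CD44 to actin, differed by 0.34 ± 0.12 (adjusted p = 0.0630) and rose without the 3 libraries that stood apart (0.36 ± 0.07, adjusted p = 3.06e-04).

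Aqp4 (ENSMUSG00000024411, chromosome 18, 15389496 to 15410982, minus strand) encodes the water channel that is concentrated in astrocyte endfeet around vessels. Its level was 160 to 243 CPM at 2 months (median 175), 129 to 180 at 9 months (median 144), 89.1 to 185 at 15 months (median 153), 133 to 181 at 24 months (median 167) and 104 to 177 at 30 months (median 146). The 2-month group reached higher than any other, but overlapped with each of them. Aqp4 differed by -0.29 ± 0.10 between old and young (adjusted p = 0.0823) and by -0.36 ± 0.12 between 30 and 2 months (adjusted p = 0.0518). The second value lay so near the threshold that DESeq2, limma voom and 10 of 39 fits without 1 library called it lower. Of 16 endfoot genes 0 rose and 2 fell, both slightly, namely the dystrophin-associated Dtna (-0.12 ± 0.04, adjusted p = 0.0279) and the basement membrane gene Agrn (-0.19 ± 0.06, adjusted p = 0.0487), and the list median was -0.03. DESeq2 called the same numbers and limma voom 0 and 1, and at an unadjusted p under 0.05 the numbers were 0 and 4. Agrn was no longer called without 30-month replicate 7 (adjusted p = 0.0669).

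S100b (ENSMUSG00000033208, chromosome 10, 76253853 to 76261159, plus strand) encodes a calcium-binding protein of astrocytes that oligodendrocytes make as well. It had 116 to 232.8 CPM at 2 months (median 161), 135 to 314 at 9 months (median 171), 136 to 235 at 15 months (median 153), 141 to 196 at 24 months (median 171) and 140 to 333 at 30 months (median 181). The spread within ages was wider than any shift between them, and the difference between old and young was 0.18 ± 0.17 (adjusted p = 0.672). The 3 highest libraries were the 3 that stood apart, with 314, 305 and 333.5 CPM. In the S100 family 0 of 11 tested genes rose or fell by edgeR, DESeq2 or limma voom, with 2 higher at an unadjusted p under 0.05, and the median was 0.13.

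Neither glutamate transporter was called at any step between ages. Slc1a2 (ENSMUSG00000005089, chromosome 2, 102658659 to 102790784, plus strand) encodes GLT-1, which clears most synaptic glutamate in the forebrain, and lies next to Cd44. It had 2481 to 3192 CPM at 2 months (median 2912), 1670 to 3223 at 9 months (median 2661), 2544 to 3343 at 15 months (median 2731), 2669 to 3014 at 24 months (median 2912) and 1452 to 2830 at 30 months (median 2582). All ages overlapped, the 3 lowest libraries were again those that stood apart, and old and young differed by -0.14 ± 0.10 (adjusted p = 0.502). Slc1a3 (ENSMUSG00000005360, chromosome 15, 8634124 to 8710764, minus strand) encodes GLAST, the transporter of radial glia and of Bergmann glia in the cerebellum. It had 425 to 638 CPM at 2 months (median 603), 307 to 669 at 9 months (median 583), 541 to 647 at 15 months (median 589), 550 to 651 at 24 months (median 615) and 333.8 to 681 at 30 months (median 561). The medians lay between 561 and 615 CPM, and the difference between old and young was -0.02 ± 0.10 (adjusted p = 0.973).

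Of 16 genes of glutamate uptake and cycling, 0 rose and 0 fell by edgeR, DESeq2 or limma voom, 1 was higher at an unadjusted p under 0.05, and the median was 0.01. Glul, the glutamine synthetase of astrocytes, differed by 0.13 ± 0.09 (adjusted p = 0.502). Few counts came from the antisense gene that overlaps exons of Slc1a2, 104 over all libraries, and strand could not be used to separate them.

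Aldh1l1 (ENSMUSG00000030088, chromosome 6, 90486427 to 90600203, plus strand) encodes an enzyme of folate metabolism and is a marker of most astrocytes. It had 44.96 to 69.96 CPM at 2 months (median 57.4), 31.5 to 63.5 at 9 months (median 55.6), 50.8 to 61.6 at 15 months (median 59.3), 56.1 to 65.03 at 24 months (median 59.4) and 30.9 to 66.5 at 30 months (median 57.8). All groups overlapped, and old and young differed by -0.01 ± 0.11 (adjusted p = 0.978). Of 17 tested genes of folate metabolism 0 rose and 0 fell by the 3 tools, with 4 higher at an unadjusted p under 0.05.

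The levels were also compared between genes, as CPM per kilobase of exon over the 39 brain libraries. Slc1a2 was highest at 206 ± 30.0 (SD, n = 39), followed by S100b at 124 ± 36.3, Gfap at 67.4 ± 27.3 and Slc1a3 at 66.9 ± 9.83. Aqp4 had 25.2 ± 4.68, Aldh1l1 12.5 ± 1.94, Vim 9.72 ± 2.39 and Serpina3n 9.22 ± 4.88, and the receptors Cd44 and Osmr came last at 0.720 ± 0.141 and 0.468 ± 0.192 CPM per kilobase. S100b and Gfap, Gfap and Slc1a3, Aldh1l1 and Vim, Aldh1l1 and Serpina3n, Vim and Serpina3n, and Cd44 and Osmr did not differ by more than the sum of their SDs. This order pools the ages, and it was not the same at each age. The mean of Gfap was 55.5 CPM per kilobase at 2 months, below Slc1a3 at 68.1, and 108 at 30 months, above Slc1a3 at 64.4. Serpina3n went from 5.72 at 2 months, below Vim at 8.23 and Aldh1l1 at 12.8, to 17.8 at 30 months, above both at 12.7 and 12.3.

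The steps between successive ages were compared next. Between 2 and 9 months 0 of the 10 genes changed (0.34% of all genes did), with 1 at an unadjusted p under 0.05 and 0 called by DESeq2 or limma voom. Between 9 and 15 months the count was 0 as well, as it was for all genes (0%) and at an unadjusted p under 0.05, and the 5 nearly identical pairs span these ages. Between 15 and 24 months 0 were called (0.0424% of all genes), 3 had an unadjusted p under 0.05 and neither DESeq2 nor limma voom called any. From 24 to 30 months 1 gene rose, Serpina3n by 0.85 ± 0.17 (adjusted p = 0.0155), where 0.202% of all genes rose. Gfap differed by 0.57 ± 0.14 in this step (adjusted p = 0.0640) and was called by DESeq2. It was also called in the fits without 30-month replicate 2, 4, 5 or 6 (adjusted p = 0.021 to 0.0458). The Serpina3n call was lost without 24-month replicate 6 (adjusted p = 0.0622). Leaving out the 10 nearly identical libraries took the calls over all genes, in either direction, from 64 to 12 between 2 and 9 months. They went from 8 to 0 between 15 and 24 months and from 47 to 17 between 24 and 30 months.

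Set against 2 months, 2 genes had risen at 24 months (Serpina3n and Osmr, beside 1.43% of all genes) and 4 at 30 months (beside 5.94%). By ranges, 4 genes at 30 months lay wholly above 2 months (1.43% of all genes tested), 2 at 24 months (Serpina3n and Vim, beside 1.02%), and 1 at 30 months above 24 months (Serpina3n, beside 0.101%).

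The 10 genes were then set in the frame of published astrocyte states, each a list of genes reported as raised in reactive mouse astrocytes. The pan-reactive, A1 and A2 lists used here held 0 of the 10 genes and need not be the whole published lists. Their counts therefore leave out the members that are themselves classical genes of the reactive state. Of 8 pan-reactive genes 3 rose and 0 fell, with a median of 0.38. They were Lcn2, an iron-binding secreted protein (3.39 ± 0.67, adjusted p = 6.04e-04), the chemokine Cxcl10 (1.86 ± 0.29, adjusted p = 2.64e-05) and the asparaginase gene Aspg (0.57 ± 0.11, adjusted p = 3.47e-04). Of the 11 tested genes of the A1 list, raised by lipopolysaccharide, 6 rose and 0 fell, with a median of 0.65, among them the class I antigen gene H2-D1 (1.15 ± 0.18, adjusted p = 2.07e-05), the glycosyltransferase gene Ggta1 (0.66 ± 0.10, adjusted p = 2.22e-05), the immunoproteasome subunit Psmb8 (1.36 ± 0.26, adjusted p = 3.68e-04) and the interferon-induced GTPase Gbp2 (1.16 ± 0.25, adjusted p = 0.00140). Several A1 genes are genes of the interferon response in many cell types. H2-D1 had 27.1 to 43.4 CPM at 2 months and 59.5 to 250 CPM at 30 months, where the median was 77.3. Without 30-month replicate 7, 8 of the 11 rose.

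Of the 11 tested genes of the A2 list, raised by ischaemia, 2 rose and 1 fell, with a median of 0.13. Cd14, a co-receptor for lipopolysaccharide, rose by 0.65 ± 0.14 (adjusted p = 0.00152), Tgm1, a transglutaminase, by 0.87 ± 0.21 (adjusted p = 0.00535), and B3gnt5, a glycosyltransferase, fell by 0.81 ± 0.19 (adjusted p = 0.00329). Without the 3 libraries that stood apart 5 rose and 1 fell. Of 30 core astrocyte genes 0 rose and 1 fell, the amino acid transporter Slc7a10 (-0.34 ± 0.07, adjusted p = 0.00140), with a median of -0.06. Over all genes tested 4.61% rose and 3.37% fell, so these 2 counts lie near the share of all genes. At an unadjusted p under 0.05, 0 core genes were higher and 4 lower, and DESeq2 called 2 lower and limma voom 1.

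**Figure D2:**
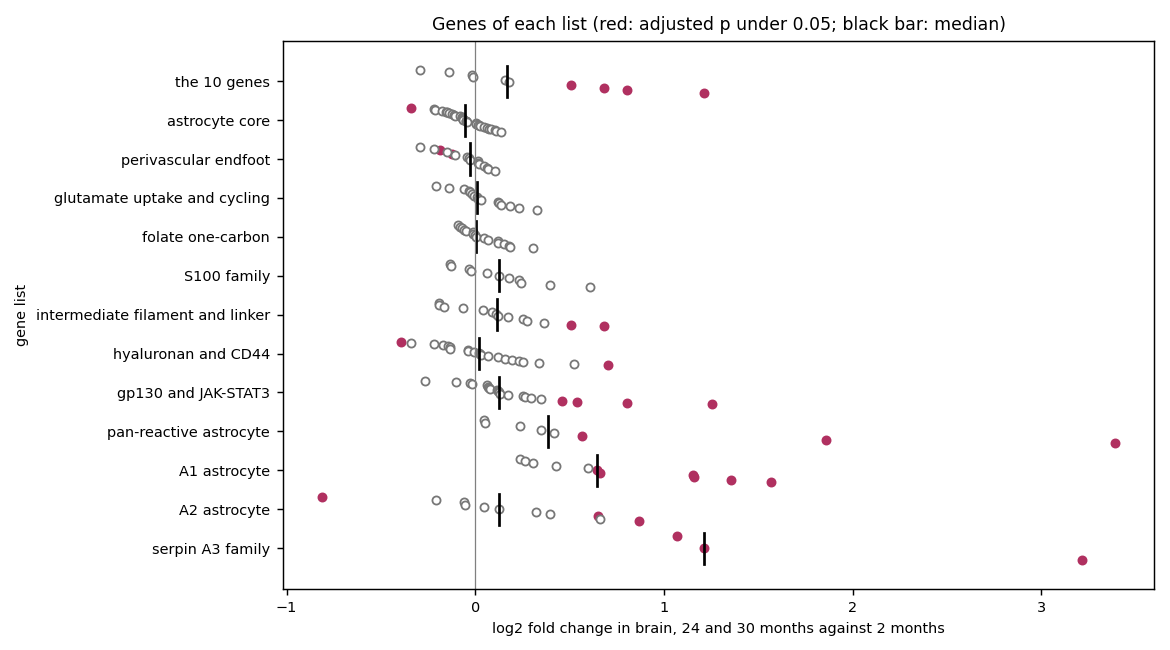
Log2 fold change in brain between old (24 and 30 months) and young (2 months) for each tested gene of 13 lists (rows). Filled points have an adjusted p under 0.05 and black bars are list medians, which lie at 0.65 for the A1 list, 0.38 for the pan-reactive list and -0.06 for core astrocyte genes.

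Markers of other cell types were read beside these genes. Of 10 microglia markers 0 rose and 0 fell (median 0.145), with 4 higher at an unadjusted p under 0.05, 1 risen by DESeq2 and 0 by limma voom. With the mitochondrial share as a covariate 5 of them rose and 1 fell, while 2021 of the 18851 genes tested rose and 1966 fell. Their summed level was 322.4 to 384.7 CPM at 2 months and 312 to 434 CPM at 30 months. None of 8 neuron markers was called by any of the 3 tools or at an unadjusted p under 0.05, and 4 of 8 oligodendrocyte markers, 2 of 4 precursor markers, 1 of 7 endothelial and 2 of 8 mural and fibroblast markers fell. The summed oligodendrocyte markers had 5974 to 9069 CPM at 2 months and 5687 to 10080 CPM at 30 months. Of 6 tested blood and lymphocyte markers 2 rose, Ptprc and Cd8a, and 0 fell, but the median was -0.22. Limma voom called 1 risen and 0 fallen, with 2 higher and 1 lower at an unadjusted p under 0.05. Cd3e and Ms4a1 were among the markers with no count in some brain libraries. The part of these cells in the rise of the 4 genes was not tested.

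Libraries of the same age were compared next, to see whether the 10 genes vary together among libraries. Log2 CPM minus the mean of the age was correlated over the 39 brain libraries for 45 pairs, with permutation of libraries within ages and adjustment over the 45. By Pearson's r 25 pairs had an adjusted permutation p under 0.05, of which 15 were positive, and by Spearman's rho 20. The glutamate transporters and Aldh1l1 went together, with r = 0.904 between Slc1a2 and Slc1a3 (rho = 0.764, adjusted permutation p = 7.5e-05) and r = 0.882 between Slc1a3 and Aldh1l1 (rho = 0.652, same p). Without the 2 libraries farthest from the median of the first gene r was 0.814 and 0.803, and without the 3 libraries that stood apart, which have the lowest Slc1a2, it was 0.635 and 0.605. Vim, Serpina3n and Cd44 formed another, with r = 0.838 between Serpina3n and Vim (rho = 0.760, adjusted permutation p = 1.29e-04, 0.746 without 2 libraries) and r = 0.813 between Vim and Cd44 (rho = 0.735, adjusted permutation p = 7.5e-05, 0.721 without 2 libraries).

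Gfap did not join this group. It went with S100b (r = 0.790, rho = 0.797, adjusted permutation p = 7.5e-05, r = 0.783 without 2 libraries) and against Serpina3n (r = -0.353, rho = -0.418, adjusted permutation p = 0.0385, r = -0.419 without 2 libraries). Thus Gfap and Serpina3n, both of which rose with age, tended in opposite directions among libraries of 1 age, but this pair was not called without the 3 libraries that stood apart (r = -0.353, rho = -0.356, adjusted permutation p = 0.0774). S100b went against Serpina3n (r = -0.768, rho = -0.727, adjusted permutation p = 7.5e-05, r = -0.700 without 2 libraries) and Vim. The number of pairs under the threshold was 16 without the 10 nearly identical libraries and 14 without the 3 that stood apart. The permutation took libraries as independent, which the nearly identical ones are not. Libraries of different ages with the same code in their titles also deviated together, by a median r of 0.242 (other codes: -0.0448).

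**Figure D3:**
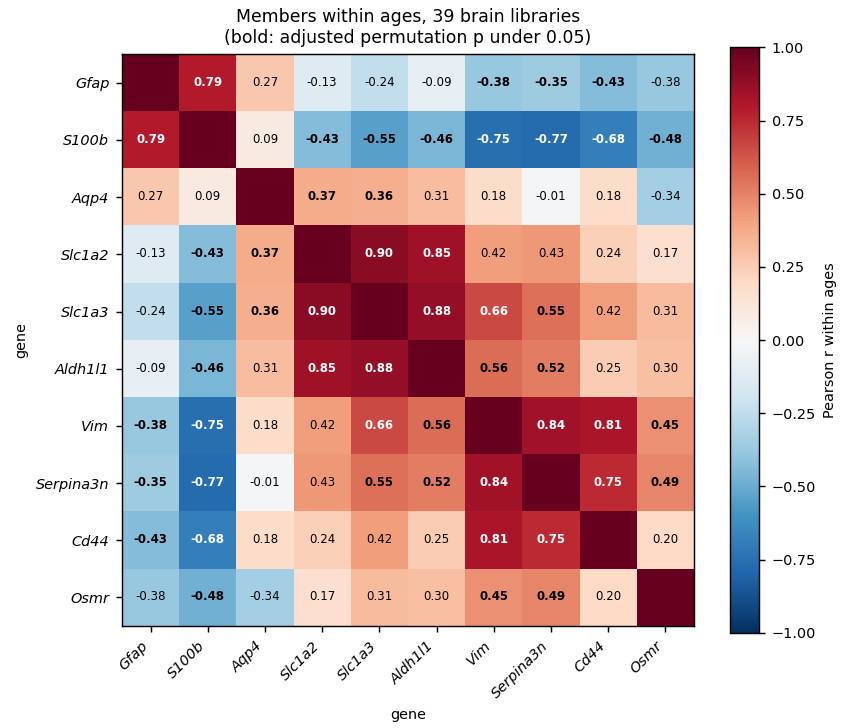
Pearson's r between the 10 genes over 39 brain libraries after subtraction of age means, from -1 (blue) to 1 (red), with bold numbers where the adjusted permutation p is under 0.05. Gfap pairs with S100b at 0.79, and Vim, Serpina3n and Cd44 form a block that goes against both.

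The mitochondrial share of a library, 5.79% to 17.1% in brain, ran along the same axis. Within ages, S100b followed it at r = 0.921 (rho = 0.930) and Gfap at r = 0.639 (rho = 0.747), while Vim had r = -0.842 (rho = -0.778), Serpina3n r = -0.793 (rho = -0.715) and Cd44 r = -0.756 (rho = -0.762). These 5 had adjusted permutation p-values of 2.5e-05 to 4e-05 over 10 relations, all of them chosen after seeing the data, and r without the 2 extreme libraries was 0.911, 0.664, -0.868, -0.756 and -0.809. Osmr had r = -0.384 (rho = -0.445, adjusted permutation p = 0.0280, r = -0.362 without 2 libraries), which was not called without the nearly identical libraries (adjusted permutation p = 0.201) or the 3 that stood apart (adjusted permutation p = 0.158), and Aqp4 r = -0.145 (rho = 0.0534, adjusted permutation p = 0.397). For Slc1a2, Slc1a3 and Aldh1l1 the r of -0.597, -0.723 and -0.643 rested on the 3 libraries that stood apart, since it was 0.314, -0.108 and 0.133 without them. At each age the brain library with the highest mitochondrial share also had the lowest summed neuron markers. At 15, 24 and 30 months that library had the highest summed oligodendrocyte markers as well. The part of cell composition in these relations was not tested.

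With the mitochondrial share as a covariate, 5 of the 10 genes rose in old brain and 1 fell. Gfap (0.70 ± 0.10), Serpina3n (1.21 ± 0.09), Vim (0.49 ± 0.07) and Osmr (0.79 ± 0.14) kept their rise, S100b rose by 0.23 ± 0.07 (adjusted p = 0.00833) and Aqp4 fell by 0.30 ± 0.11 (adjusted p = 0.0425). The number of all genes called went from 1505 to 3987 under this covariate. Of the 18851 genes tested, 2021 then rose and 1966 fell, beside which the counts here are to be read. The lists gained calls too. Of the filament genes 5 rose and 2 fell, of the S100 family 4 rose, of the gp130 list 9 rose, of the A1 list 9 rose and of the endfoot list 5 fell.

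**Figure D4:**
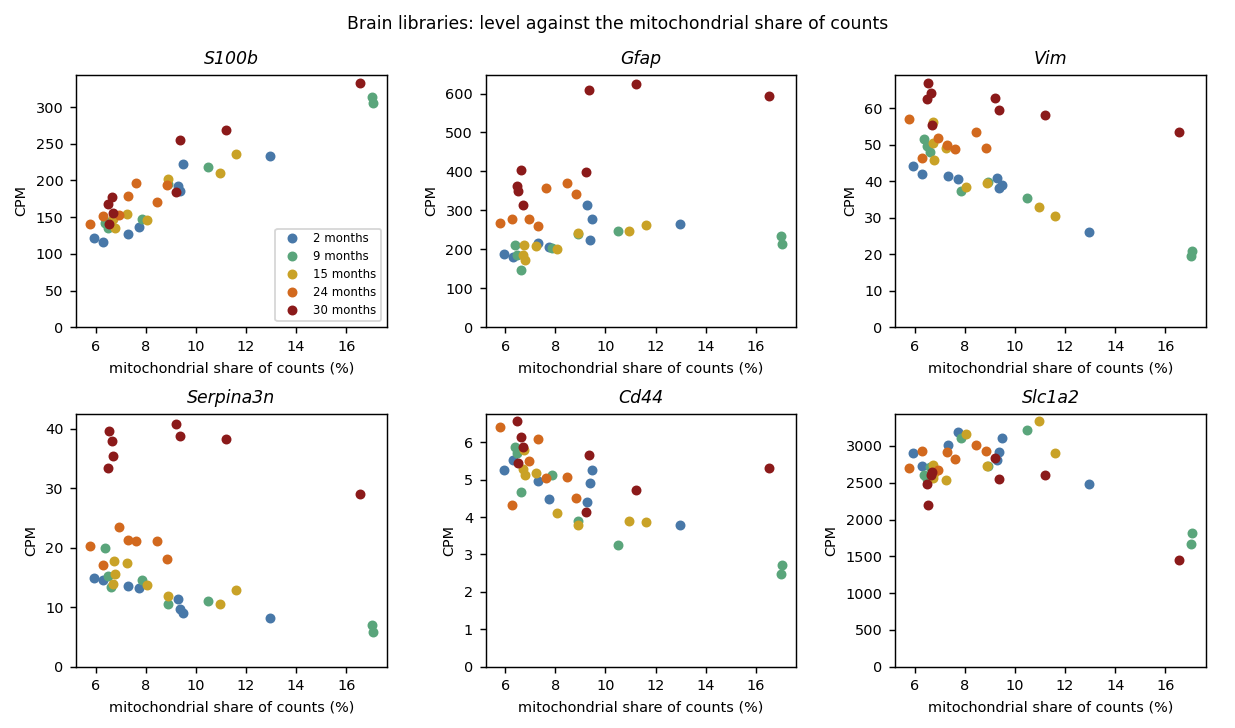
CPM of 6 of the 10 genes against the percentage of counts from mitochondrial genes in the 39 brain libraries, coloured by age in months. S100b climbs and Vim, Serpina3n and Cd44 decline along the axis within ages, and the 3 libraries at 16.5% to 17.1% have the lowest Slc1a2.

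The genes whose pattern over the 39 brain libraries was most like each member were listed as a description. Gfap was nearest to Clec7a (r = 0.917), Cst7 (0.900) and Cd68 (0.894), and within ages r to Clec7a was 0.768. Clec7a and Cst7 are genes of activated microglia and Cd68 encodes a lysosomal protein of phagocytes, and all 3 rose in old brain, by 2.43 (adjusted p = 9.77e-06), 2.61 (adjusted p = 1.53e-05) and 0.43 (adjusted p = 3.41e-06). Serpina3n was nearest to Gpnmb (0.907), a glycoprotein of phagocytes, to the leukocyte integrin Itgb2 (0.897) and to the growth factor Csf1 (0.884), and these rose as well, by 1.34 (adjusted p = 3.15e-07), 0.72 (adjusted p = 4.99e-07) and 0.46 (adjusted p = 1.57e-04). The part of microglia and other phagocytes in the rise of Gfap and Serpina3n was not tested. Vim was nearest to Lgals3bp (0.942), Plcg2 (0.926) and Msn (0.926), and Osmr to Ahnak (0.911), Ankrd13a (0.863) and Acer2 (0.861).

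Slc1a2 was nearest to Mtap2 (r = 0.941), Camk2a (0.934) and Spnb3 (0.930), which are genes of neurons, and Slc1a3 to Amot (0.929), Mtap2 (0.923) and Ppap2b (0.913). Aldh1l1 was nearest to Gprc5b (0.918), Acsf2 (0.911) and Gpr37l1 (0.907), and Aqp4 to Ednrb (0.845), Ugt8a (0.807) and Slc7a10 (0.776). S100b was nearest to Plekhb1 (0.973), Svip (0.965) and Pla2g16 (0.963), and Cd44 to Fam129a (0.861), Serping1 (0.848) and Vim (0.818). The points share their libraries and therefore depth, mitochondrial share and cell composition.

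The other tissues served as contrast. CPM values were scaled within each tissue, whereas the differences between tissues come from 1 fit that scales the 2-month libraries of all tissues together, so the ratio of CPM values does not give the fitted difference. At 2 months all 10 genes differed between brain and each of liver, skin and blood in that fit. Brain was higher than liver for 5 genes and lower for 5 (41.8% and 37.5% of all genes), higher than skin for 6 and lower for 4 (38.5% and 41.2%), and higher than blood for 8 and lower for 2 (50.3% and 33.7%). The scaling weighs on these differences, since the median over all genes was 0.0957 against liver and 0.616 against blood, and 1.16 and 2.17 with library totals alone. With totals alone Vim was higher in brain than in liver (0.52, adjusted p = 0.0167) and not lower (-0.55 in the joint scaling), and Osmr was not called against liver (adjusted p = 0.322), while the other members kept their direction and call in each tissue. The genes that were higher in brain than in each of the 3 tissues were Gfap, Aqp4, S100b, Slc1a2 and Slc1a3. At this age Gfap had 0.256 to 0.738 CPM in the liver libraries, from 0.304 to 0.774 in those of skin and from 2.66 to 3.62 in those of blood. Aqp4 had no count in any of the 24 blood libraries, which allows up to 0.0224 CPM over the 2-month blood group, by counting error alone.

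Several members were more abundant outside the brain. Aldh1l1, which also serves folate metabolism in hepatocytes, had 903 to 1567 CPM in liver at 2 months, and brain was lower, with a fitted log2 difference of -5.42 ± 0.21 in the joint scaling (adjusted p = 8.89e-17) and of -4.33 with totals alone. Serpina3n had 316 to 6208 CPM in the 4 young liver libraries. Vim and Cd44 were lower in brain than in blood, with fitted log2 differences of -3.45 ± 0.18 and -6.27 ± 0.18 in the joint scaling, of -1.83 and -4.63 with totals alone, and 140 to 174 and 119 to 160 CPM in blood. Per kilobase, the 2-month mean of Osmr was 3.30 CPM in skin and 0.353 in brain, and that of Cd44 was 31.1 CPM in skin and 0.713 in brain.

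Old and young were then compared within each of these tissues. In blood 6 genes passed the filter on low counts, of which Vim and Cd44 rose and Gfap fell (12.7% of all genes rose and 8.91% fell). Blood Vim had 140 to 174 CPM at 2 months, 255.98 to 431 at 24 months and 358 to 669 at 30 months, and blood Cd44 had 119 to 160, 168 to 323.9 and 173 to 371 CPM. For both genes each old group, of 4 or 5 libraries, lay above the young one. The share of all blood genes with such separate ranges is not given here. Vim rose by 1.35 ± 0.21 (adjusted p = 1.08e-04) and Cd44 by 0.92 ± 0.21 (adjusted p = 0.00335). Gfap in blood was 2.66 to 3.62 CPM at 2 months and 1.11 to 3.48 CPM at 30 months and fell by 0.78 ± 0.24 (adjusted p = 0.0229), a call that was lost with the added 24-month library (-0.28, adjusted p = 0.651) or without 2-month replicate 1 (adjusted p = 0.0595). Of 10 microglia and macrophage markers 5 rose in blood, with summed levels of 559 to 768 CPM at 2 months and 867 to 1864 CPM at 30 months, and of 8 blood and lymphocyte markers 3 fell. Their part in the changes of Vim and Cd44 was not tested.

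In skin all 10 genes passed the filter, and Vim and Osmr rose while Cd44 fell (19.6% of all genes rose and 24.2% fell). Vim had 212 to 423 CPM at 2 months and 352 to 590 CPM at 30 months, a rise of 0.66 ± 0.20 (adjusted p = 0.0131) that was not called without 2-month replicate 3 (adjusted p = 0.0565) or replicate 4 (adjusted p = 0.0545). Osmr had 35.7 to 47.1 CPM at 2 months and 42.5 to 55.4 CPM at 30 months and rose by 0.39 ± 0.08 (adjusted p = 0.00203). Cd44 had 129 to 248.5 CPM at 2 months and 68.4 to 139 CPM at 30 months and fell by 0.70 ± 0.19 (adjusted p = 0.00740). The ranges of all 3 genes overlapped between 2 and 30 months. Without 2-month replicate 1, Aqp4 (1.42, adjusted p = 0.0238) and Aldh1l1 (0.63, adjusted p = 0.00134) also rose. All 8 blood and lymphocyte markers rose in skin, with summed levels of 151 to 730 CPM at 2 months and 507 to 1566 CPM at 30 months. Of 6 tested endothelial markers 5 rose (median 0.80), and of 8 mural and fibroblast markers 1 rose and 3 fell, with summed levels of 3944 to 8220 CPM at 2 months and 1695 to 3470 CPM at 30 months. The part of these cells was not tested.

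In liver 9 genes passed the filter, and Gfap, Vim, Cd44 and Slc1a3 rose while Aqp4 fell (9.03% of all genes rose and 5.23% fell). Vim had 21.7 to 43.5 CPM at 2 months and 38.5 to 190 CPM at 30 months (1.40 ± 0.37, adjusted p = 0.0183), and Cd44 had 12.4 to 22.05 and 23.4 to 63.8 CPM (1.11 ± 0.32, adjusted p = 0.0264). Aqp4 had 3.35 to 9.74 CPM at 2 months and 0.682 to 3.18 CPM at 30 months (-1.20 ± 0.31, adjusted p = 0.0146). Gfap (1.29 ± 0.34) and Slc1a3 (1.22 ± 0.40) stayed at or below 2.33 CPM in each library. The liver calls lay near the threshold, and 0 genes were called without 2-month replicate 3, where 3 young libraries were left, and 1, Serpina3n, without 2-month replicate 4. The changes themselves moved little without replicate 3, to 1.25 for Gfap, 1.31 for Vim, 1.03 for Cd44, 1.29 for Slc1a3 and -0.94 for Aqp4, with adjusted p-values of 0.0674 to 0.0993. In Serpina3n, 2-month replicate 1 had 6208 CPM against 316 to 763 CPM in the other 3, and old and young differed by -1.496 ± 0.52 (adjusted p = 0.0578) with that library and by 0.41 without it. Of the 8 blood and lymphocyte markers 6 rose in liver, with summed levels of 300 to 371 CPM at 2 months and 203 to 349 CPM at 30 months, and 5 of 10 microglia and macrophage markers rose, with 96.1 to 179 and 164 to 392 CPM. Of the 8 mural and fibroblast markers 2 rose, with summed levels of 274 to 342 CPM at 2 months and 386 to 822 CPM at 30 months. The part of these cells was not tested.

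**Figure D5:**
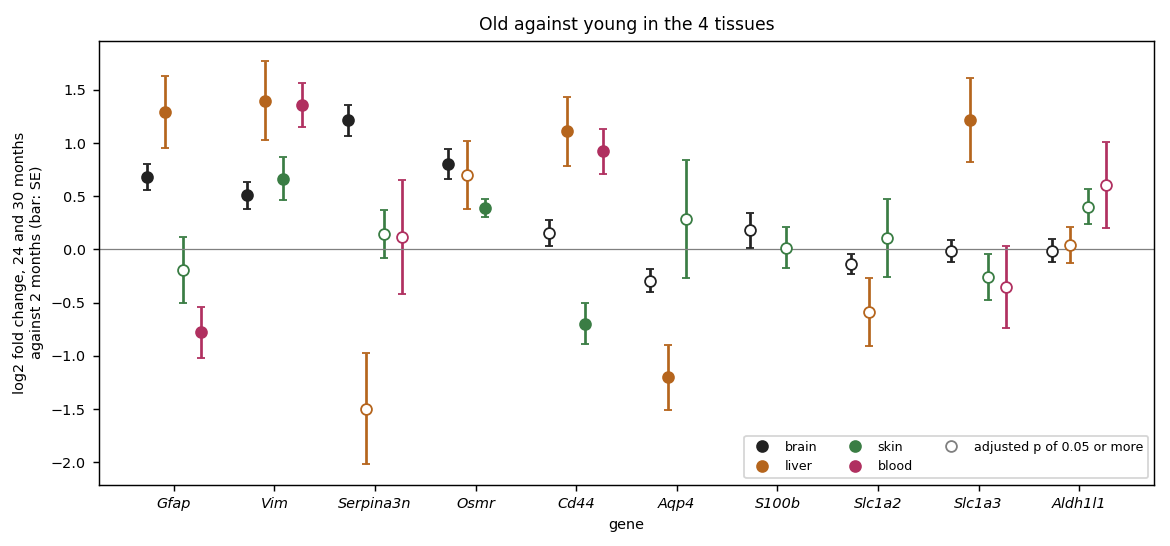
Log2 fold change of the 10 genes between old (24 and 30 months) and young (2 months) with its SE in brain, liver, skin and blood, filled where the adjusted p is under 0.05; genes under the filter on low counts are left out. Serpina3n has 1.21 in brain and -1.496 in liver, and Gfap 0.68 in brain and -0.78 in blood.

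A call in brain and none elsewhere is no test of a difference, so the old minus young difference was compared between tissues with limma voom in 1 fit of all libraries. It was unequal among the 4 tissues for 6 of the 10 genes (44.4% of all genes), namely Gfap, Serpina3n, Vim, Aqp4, Cd44 and Slc1a3. Against liver 1 gene differed (6.22% of all genes), Serpina3n, whose change was higher in brain by 1.88 ± 0.41 (adjusted p = 0.00128). Without 2-month liver replicate 1, the library with 6208 CPM, this was 0.95 ± 0.34 and not called (adjusted p = 0.0832). Against skin 3 differed (25.2%), Serpina3n by 1.15 ± 0.39 (adjusted p = 0.0222), Cd44 by 0.88 ± 0.30 (adjusted p = 0.0211) and Aqp4 by -1.09 ± 0.39 (adjusted p = 0.0302). Against blood 2 differed (11.6%), Gfap by 1.54 ± 0.29 (adjusted p = 4.50e-05) and Vim by -0.83 ± 0.28 (adjusted p = 0.0409). The rise of Osmr was not shown to differ between brain and any other tissue (adjusted p = 0.108 over the 4 tissues). The fit took all libraries as independent although blood and skin shared animals, and with the animal as a block (consensus correlation 0.018) the same 6 genes were called. Without 2-month liver replicate 1 the number was also 6, with Slc1a2 gained (adjusted p = 0.0314) and Slc1a3 lost.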

How the data were processed

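RNA was sequenced with single-end reads, and the submitters' processing notes name bcl2fastq 1.8.3, CASAVA 1.7, TopHat2 2.0.6, HTSeq 0.5.3p9 and featureCounts 1.4.3-p1 with the mouse genome GRCm38. The authors deposited read counts per Ensembl gene and RPKM values (reads scaled by exon length and depth). The strand setting of the counting is not given in the sources used here, so reads of a gene and its antisense partner cannot be told apart. Besides the main table, a further one held 3 libraries that the study had set aside, which were used only as an alternative. The deposited RPKM values served only for the study's filter, under which 24333 genes had an RPKM of 0 in at least 1 library. Library groups came from the sample labels, and every column was mapped. Within a tissue each library was taken as 1 animal, so that p-values measure the spread between libraries. Blood and skin shared animals, which the comparison of tissues took as independent, with the animal as a block as an alternative.

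Counts were scaled by TMM, filtered with filterByExpr and fitted per tissue over all 5 ages with edgeR 4.0.16 (robust quasi-likelihood test, Benjamini-Hochberg adjustment, threshold 0.05) in R 4.3.3. The comparison of age changes between tissues used limma 3.58.1, and DESeq2 1.42.0 was an alternative. Correlations used Python 3.11.15 with scipy 1.17.1 and 100000 permutations within ages, for which 1e-05 is the smallest p they can give. The figures were made with matplotlib 3.10.9. The scripts were tested on simulated data. Limits for genes without counts used 3 counts and cover counting error only. Coordinates are from a GRCm38 annotation in which 35449 of 37315 gene IDs were found. All 10 genes are described. Other genes named are, from each list, up to 4 called genes with the smallest adjusted p and the partners of a member, the paralogs of Serpina3n and the 3 genes nearest to each member by correlation. Stat3, Msn and Glul, and the blood markers named, were singled out after their values were seen. The genes and lists were chosen with earlier results of these data known. The alternatives were another scaling, other tools, other filters, each old age alone, a block by title code, leaving out each library, leaving out the nearly identical libraries and the added libraries. Leaving out the 3 brain libraries that stood apart, the mitochondrial covariate and leaving out 1 liver library in the comparison of tissues were chosen after seeing the data. Some list genes are not reported here by name.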

Additional observations from a re-analysis of the deposited data

Results flagged for a closer look

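In 177 groups of 4 to 10 libraries, 12 had a highest or lowest library far from the rest by Dixon's criterion, and chance gives about 1 in 20 groups, or 8.85. In brain these were Vim in 2-month replicate 7 (26.2 CPM, low) and, in 30-month replicate 7, Slc1a2 (1452 CPM, low) and Slc1a3 (333.8 CPM, low). In liver it was Serpina3n in 2-month replicate 1 (6208 CPM, high). In skin 2-month replicate 1 was high for Aqp4 (106 CPM) and Aldh1l1 (21.3 CPM), and S100b was high in 2-month replicate 5 (4.82 CPM) and 9-month replicate 4 (4.33 CPM). In blood the libraries were 30-month replicate 4 for Vim (669 CPM), 9-month replicate 2 for S100b (0.558 CPM), 9-month replicate 3 for Cd44 (307 CPM) and 2-month replicate 4 for Aldh1l1 (0.465 CPM), all high.

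The change from young to old differed between brain and another tissue, by limma voom, for 5 genes in 6 comparisons. As brain minus the other tissue on the log2 scale, the differences were 1.54 for Gfap against blood, 1.88 for Serpina3n against liver (0.95 and not called without 2-month liver replicate 1, adjusted p = 0.0832), 1.15 for Serpina3n against skin, -0.83 for Vim against blood, -1.09 for Aqp4 against skin and 0.88 for Cd44 against skin.

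Signals also stood out in the libraries that the study had set aside and that no comparison above used by default. The added 24-month brain library had 501 CPM of S100b, while the other 24-month brain libraries had 139 to 202 CPM, computed on library totals. The added 24-month blood library had 4.12 CPM of Gfap, against 1.71 to 2.44 CPM in blood of the same age.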

How the results depend on the processing

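The count of 4 members called in old brain was the same with other scalings, DESeq2 and limma voom and without the nearly identical libraries, was 4 to 5 without 1 library each (Aqp4 was called lower without 15-month replicate 1, -0.29, adjusted p = 0.0469), and became 3 with the study's filter, which leaves out Osmr, 6 with the mitochondrial covariate and 2 with 24 months alone as old. Between 30 and 2 months it was 7 with the covariate, between 24 and 15 months 1 with the covariate, and between 30 and 24 months 2 with DESeq2, with the covariate and with the replicate block, and 0 to 2 without 1 library each. The same-code libraries deviated together by a median r of 0.242 over 72 pairs (other codes: -0.0448). Of the 72 pairs 55 had r over 0.1, and the range was -0.651 to 0.744. The labels do not say what the codes mean, so the libraries were not taken as paired in the main tests. With this replicate block, 4 members were called in old brain, with 1979 genes in all, and 5 at 30 months, including S100b (0.41, adjusted p = 0.0499). Directions changed for Slc1a3 in brain (0.0225 without the 3 libraries that stood apart and 0.0492 with 24 months alone, -0.0733 to 0.0233 without 1 library) and Aldh1l1 in brain (0.00986 with the block, 0.0305 without the 3 libraries, 0.0406 with 24 months alone, -0.0612 to 0.0314 without 1 library), and for Serpina3n in skin (-0.0301 with 24 months alone), in liver (-1.85 to 0.41 without 1 library) and in blood (-0.0687 with 24 months alone, -0.10 to 0.60 without 1 library). In liver 3 members were called without a filter, 1 with 24 months alone and 3 with 30 months alone, and 0 to 6 without 1 library. The range was 2 to 5 in skin, and in blood 24 months alone called 1. The 25 correlated pairs became 16 without the nearly identical libraries and 14 without the 3 that stood apart. Over all genes, brain called 3987 with the covariate and 484 with 24 months alone (30 against 2 months: 4637 with the covariate). For 30 against 24 months the count was 193 with DESeq2, 19 with limma voom, 17 without the nearly identical libraries, 847 with the block, 139 with the covariate, 26 without the 3 libraries, and between 12 and somewhat more than the 193 of DESeq2 without 1 library each. Liver called 1451 without a filter, 1445 with the study's filter, 1335 with limma voom, 3626 with the added library, 1344 with 24 months alone, and 509 to 2755 without 1 library. Skin called 4679 and blood 969 with 24 months alone, and skin 5424 to 11285 without 1 library. The cause of these shifts was not tested. Low members such as Gfap and Slc1a3 in liver and S100b and Slc1a2 in blood are limited by counts.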

Other observations

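The added 24-month brain library, which the study had set aside, held 22.3% mitochondrial counts, above every library of the main table, with 1356 CPM of Slc1a2, 28.6 CPM of Aldh1l1, 9.99 CPM of Serpina3n and 31.8 CPM of Vim, all scaled by library totals. The added blood library of the same age had 125 CPM of Vim and 111 CPM of Cd44.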
